A study of Mus musculus with 15 samples.

Results

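The comparison described here set type II alveolar epithelial (AT2) cells from lungs recovering from injury, with regulatory T cells (Tregs) present, against control AT2 cells. It used the 10 arrays that the labels place in these groups, 5 in each, of the 15 arrays in the series. The resolving AT2 cells came from Foxp3EGFP mice on a C57BL/6 background, whose Tregs carry a green fluorescent protein, and the control AT2 cells from mice labelled as C57BL/6 background. A further group of 5 arrays came from Foxp3DTR mice, whose Tregs are depleted with diphtheria toxin. These arrays entered the estimate of spread, the choice of genes to test and the mean level of each gene. A few of their levels are also given side by side. All mice were 8 to 12 weeks old. Injury was produced with Escherichia coli lipopolysaccharide (LPS) at 3 mg/kg into the airway, and lungs were taken at day 7. The treatment text names all 3 strains in that sentence, so the labels do not settle whether control mice also received LPS or when they were taken, and they do not say whether Foxp3EGFP mice received diphtheria toxin. Reporter strain and injury therefore change together between the groups and cannot be told apart. Whether every array had its own mouse is not in the labels, so the spread behind the p-values may be partly technical.

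AT2 cells make and recycle surfactant, the phospholipid and protein film that keeps the air sacs open, and they serve as progenitors of the flat type I cells after injury. During repair they can pass through a transitional state in which stress-response and secreted genes such as clusterin are raised. Lipins, one of which is measured here, convert phosphatidate to diacylglycerol, a precursor of the phosphatidylcholine of surfactant.

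The platform was the Affymetrix Mouse Gene 2.1 ST array, and every level below is a log2 RMA value (1 unit is a factor of 2). Only the leading 1.03% of the 31351 rows of the deposited table hold measurements. These rows carry 323 gene symbols, mostly cDNA clones, and 46 of the symbols had a mean over 4 across the 15 arrays. These 46 are called expressed below, and the other 277 are near the floor, since the median gene had a mean of 2.32. The division is a convention: just inside it lay Map3k14 (4.03), Gm19966 (4.02) and D5Ertd683e (4.004), and just outside it Gm19409 (3.99), Zscan30 (3.98) and Gm10589 (3.95). The identity of the cells could not be checked, because 0 of 16 AT2 markers, among them Sftpc and Abca3, are among the measured rows. For the same reason the pairing of gene names with values in these rows could not be checked. Every gene named below rests on the row labels as deposited. Array medians ranged from 2.26 to 2.39 with Tregs present and from 2.28 to 2.37 in control. Between-array correlations were 0.974 to 0.981 within the Tregs-present group, 0.958 to 0.984 within control and 0.930 to 0.966 between the groups. One control array, number 4, stood apart in the leukocyte gene Lcp2, at 6.61 against 2.78 to 3.81 in the other controls, and results without it are given below.

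Of 173 genes that passed the filter on dim genes, 28 changed at an adjusted p under 0.05 (16.2%, limma with Benjamini-Hochberg adjustment over all 173). Of these, 5 rose (2.89%) and 23 fell (13.3%). Expressed genes supplied 22 of the 28 calls, 3 rises and 19 falls among 46 tested (47.8%). Near the floor, 6 of 127 tested genes changed (4.72%), 2 up and 4 down. The median size of the change, regardless of sign, was 0.54 over the expressed genes and 0.11 over the near-floor genes that were tested. Near-floor genes also varied less, with a median residual SD of 0.18 against 0.32 for expressed genes. Groups were fully separate for 19 genes of 173 (11.0%), and 18 of these were called. A change of at least 2-fold was found for 12 of the called genes (6.94% of all tested). The plot of change against level shows the calls spread over the whole range above a mean of 4.

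**Figure D1:**
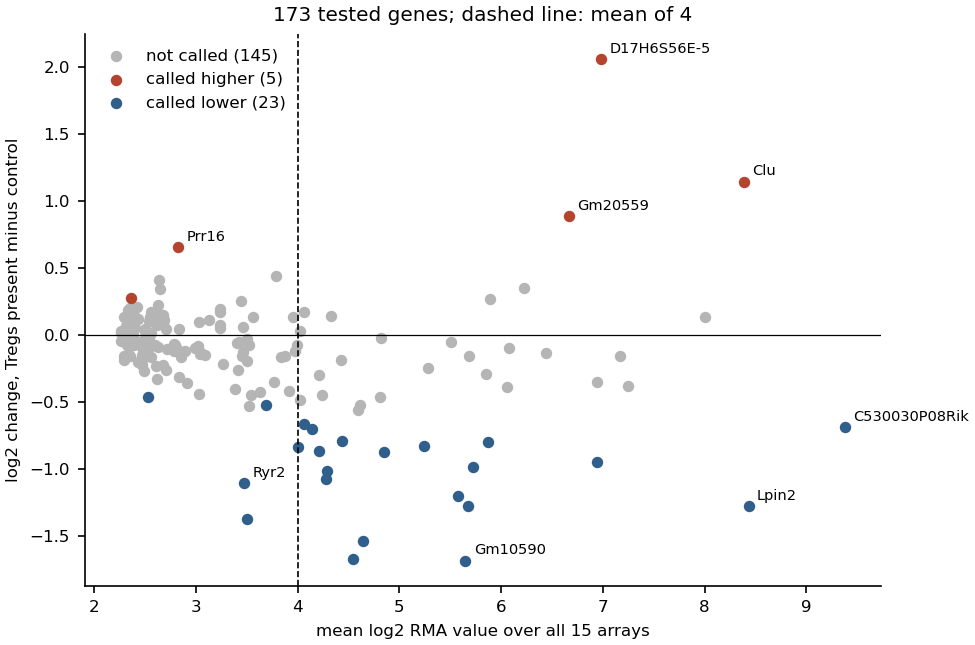
Log2 change (Tregs present minus control) against mean log2 RMA value over 15 arrays for the 173 tested genes, 1 point each. Of the 28 called genes, 22 lie to the right of the dashed line at a mean of 4, and most of these are below 0.

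D17H6S56E-5 showed the largest change. It is also named G7e, is annotated by RefSeq as protein coding, lies between Lsm2 and Vars in the class III region of the major histocompatibility complex, and resembles a retroviral envelope gene. Its values were 7.59, 7.53, 7.28, 8.03 and 7.58 with Tregs present, against 5.51, 5.65, 5.35, 5.64 and 5.55 in control. The lowest resolving array was thus above the highest control array by more than the whole range of either group. The log2 change was 2.06 (95% interval 1.78 to 2.35), a 4.18-fold rise (limma adjusted p = 3.21e-09). Edv, an endogenous sequence related to the Duplan murine retrovirus, is the other retrovirus-related gene in the measured rows. It stood at 7.72, 8.16, 7.66, 7.87 and 8.54 with Tregs present, against 7.95, 7.98, 7.78, 7.87 and 7.67 in control. The Edv groups overlapped, and the difference of 0.14 (interval -0.23 to 0.50) did not pass the test (limma adjusted p = 0.657).

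Clu encodes clusterin, a secreted chaperone that binds misfolded proteins and limits complement, and it is the 1 measured member of the 13 genes listed as transitional AT2 genes. Clu stood at 8.81, 8.64, 8.68, 8.96 and 8.79 with Tregs present, against 7.65, 7.80, 7.53, 7.84 and 7.34 in control. All 5 resolving arrays were above all 5 control arrays, and the resolving values were the tighter set, with an SD of 0.12 against 0.21. The rise was 2.21-fold, a log2 change of 1.15 (limma adjusted p = 2.59e-06). Krt8, Cldn4 and the other 10 members of that list are not analysed here.

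Lpin2, a phosphatidate phosphatase, was the most highly expressed gene with an established name to fall. Its values were 7.35, 8.33, 7.33, 8.33 and 8.19 with Tregs present, against 9.26, 9.23, 9.13, 9.33 and 8.96 in control. The control arrays lay within a narrow range, whereas the resolving arrays 1 and 3 were about 1 unit below the other 3 of their group. The log2 change was -1.28 (interval -1.68 to -0.87, limma adjusted p = 9.77e-05). Leaving out 1 array at a time kept the change between -1.38 and -1.13. The row is that of the clone AK048657. This is not particular to Lpin2, since 312 of the measured rows carry a clone number that starts with AK. Another row with the symbol Lpin2 is not analysed here. Lpin2 is 1 of 17 listed genes of fatty acid and phospholipid synthesis, and the other 16 are not analysed here either.

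Ryr2, the ryanodine receptor of heart muscle, which lets calcium out of intracellular stores, was low in both groups. It had values of 2.89, 3.15, 2.90, 3.11 and 3.21 with Tregs present, against 4.43, 3.85, 4.46, 3.52 and 4.51 in control. The groups did not overlap, and control arrays 2 and 4 were the lowest of their group. The log2 change was -1.11 (interval -1.46 to -0.75, limma adjusted p = 0.000113). Klf11, a transcriptional repressor of the Krüppel-like family that responds to TGF-beta, stood at 3.65, 3.49, 3.47, 3.55 and 3.45 with Tregs present, against 3.99, 3.86, 3.89, 4.21 and 4.27 in control. Its fall of 0.52 on the log2 scale was small but the groups were separate (limma adjusted p = 0.00725). After quantile normalization the Klf11 change was -0.22, and the call was lost (limma adjusted p = 0.345).

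Prr16, which is reported to promote cell growth and is also called Largen, stood at 3.09, 2.86, 3.21, 2.91 and 3.31 with Tregs present, against 2.42, 2.55, 2.28, 2.36 and 2.47 in control. The control values lie at the array medians, so the rise (log2 change 0.66, limma adjusted p = 0.000152) starts from the level of the median row. The pseudogene Gm7167 was the other near-floor gene that rose, with values of 2.75, 2.32, 2.67, 2.32 and 2.41 with Tregs present, against 2.15, 2.32, 2.18, 2.18 and 2.24 in control. All 5 Gm7167 control values lay below their array medians and all 5 Tregs-present values above theirs, so it passed the filter on dim genes only through groups where it was high. With no filter the call was lost (limma adjusted p = 0.0663). Without Tregs-present array 3 its adjusted p was 0.105 (limma).

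**Figure D2:**
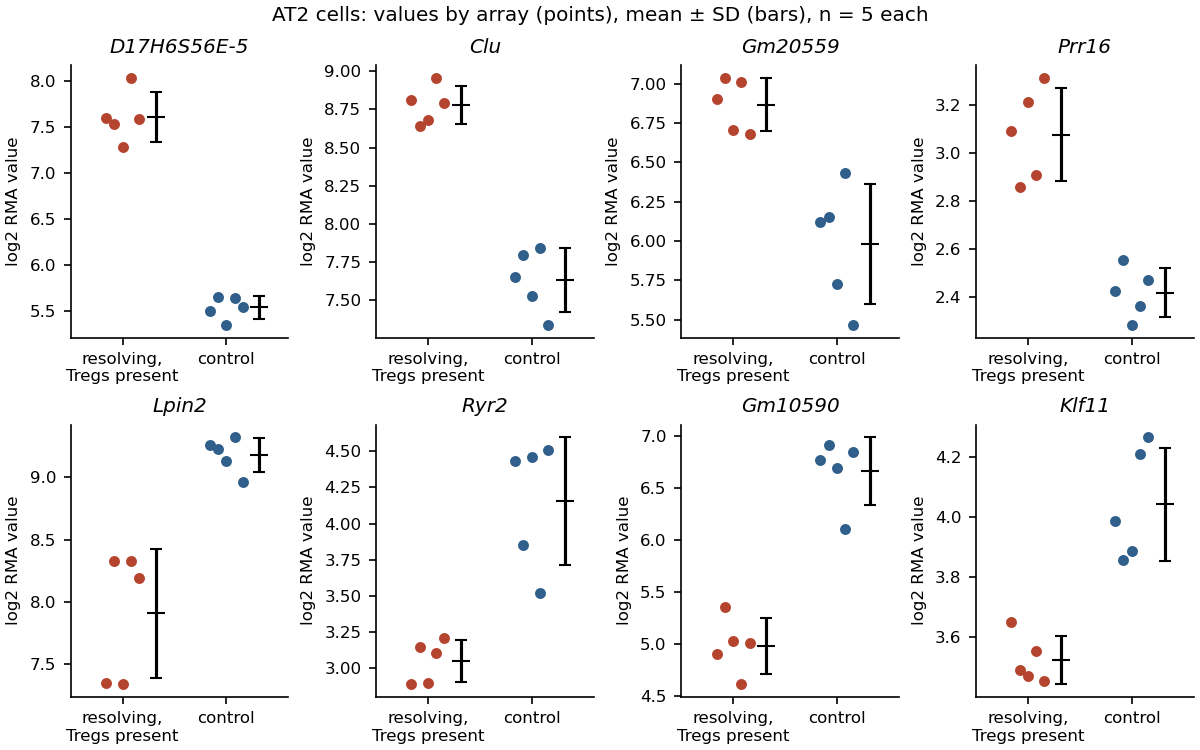
Log2 RMA values of 8 genes in each array (points), with the mean ± SD of each group beside them (n = 5 each). Each vertical axis has its own range, and in all 8 genes the resolving arrays with Tregs present lie wholly above or wholly below the control arrays.

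RefSeq promoter windows that can be shown matched 5 of the 28 called genes. The windows of the 4 protein-coding ones, D17H6S56E-5, Klf11, Lpin2 and Ryr2, are shown because these genes carry the named changes above. Each holds the 250 bases before the annotated start in the RefSeq annotation of GRCm38.p6, and for Lpin2 the most upstream of 3 annotated starts was taken. Capitals mark matches on either strand to the TATA box motif TATAAA, to the CCAAT box motif and to the GC box motif GGGCGG, overlapping matches included.
D17H6S56E-5, chr17:35000747-35000996, minus strand: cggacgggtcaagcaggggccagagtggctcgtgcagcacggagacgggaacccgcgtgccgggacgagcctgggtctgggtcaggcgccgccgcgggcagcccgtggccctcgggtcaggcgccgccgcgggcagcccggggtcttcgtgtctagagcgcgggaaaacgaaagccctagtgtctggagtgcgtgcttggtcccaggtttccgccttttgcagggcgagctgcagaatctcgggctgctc
Klf11, chr12:24651121-24651370, plus strand: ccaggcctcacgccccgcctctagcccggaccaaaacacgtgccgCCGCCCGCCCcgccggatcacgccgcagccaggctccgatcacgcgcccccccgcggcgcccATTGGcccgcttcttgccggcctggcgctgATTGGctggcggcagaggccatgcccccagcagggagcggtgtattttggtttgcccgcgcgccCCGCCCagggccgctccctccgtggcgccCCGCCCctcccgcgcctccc
Lpin2, chr17:71183282-71183531, plus strand: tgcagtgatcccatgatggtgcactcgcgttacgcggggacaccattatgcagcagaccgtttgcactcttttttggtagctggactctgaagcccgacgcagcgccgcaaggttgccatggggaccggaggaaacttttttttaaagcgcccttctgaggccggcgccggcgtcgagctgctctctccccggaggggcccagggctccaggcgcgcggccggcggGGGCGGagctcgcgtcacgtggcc
Ryr2, chr13:12106946-12107195, minus strand: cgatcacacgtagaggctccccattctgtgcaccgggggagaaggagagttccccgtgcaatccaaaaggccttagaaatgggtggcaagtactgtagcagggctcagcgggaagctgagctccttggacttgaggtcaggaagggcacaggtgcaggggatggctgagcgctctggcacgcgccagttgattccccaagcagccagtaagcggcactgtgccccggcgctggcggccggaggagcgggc
TATAAA was in none of the 4 windows, while 12.4% of the 32851 annotated windows of this length hold it. GGGCGG occurred 4 times in the Klf11 window and 1 time in the Lpin2 window, and 32.7% of all windows hold it. CCAAT occurred 2 times in the Klf11 window, and 33.8% of all windows hold it. Over the 4 windows shown, the base composition ran from 63.2% G or C in Ryr2 to 76.8% in Klf11, against a median of 52.4% over all windows. Windows not shown lay outside that range: Gm20559 at 41.6% to 42.8%, and the other Lpin2 starts at 83.2% and 44.8%. The Lpin2 window at 44.8% held 3 matches to CCAAT, and each Gm20559 window held 1. These matches describe the letters of the windows and were not related to the changes by a test.

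Genes with only a predicted-gene, RIKEN clone or locus name made up 31 of the 46 expressed genes, and 17 of them fell and 1 rose (58.1% called, against 16.2% of all tested genes). Among the 15 expressed genes with another name, 2 fell and 2 rose (26.7%). Near the floor, 3 of 91 tested genes of the clone class were called (3.30%), with a median change of -0.05. The median log2 change was -0.69 over the 31 and -0.09 over the 15, against -0.07 over all 173 tested genes. These medians moved with the scaling: after quantile normalization they were -0.21 and 0.25. After centring arrays on the expressed genes, an alternative chosen after seeing the data, they were -0.26 and 0.33. Both methods make a change shared by many expressed genes smaller by design. Averaged within each array, the 31 predicted or clone genes stood at 4.99, 5.21, 4.85, 5.32 and 5.07 with Tregs present, against 5.87, 5.58, 5.93, 5.41 and 5.78 in control. The 2 sets of array means did not overlap, although resolving array 4 and control array 4 were close (5.32 and 5.41). The 15 other genes averaged 5.77, 5.96, 5.65, 6.04 and 5.80 with Tregs present, against 5.86, 5.82, 5.82, 5.81 and 5.98 in control, and these means overlapped. The interquartile range of all measured rows was 0.791 to 1.04 with Tregs present and 0.977 to 1.196 in control, and its part in the difference was not tested.

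**Figure D3:**
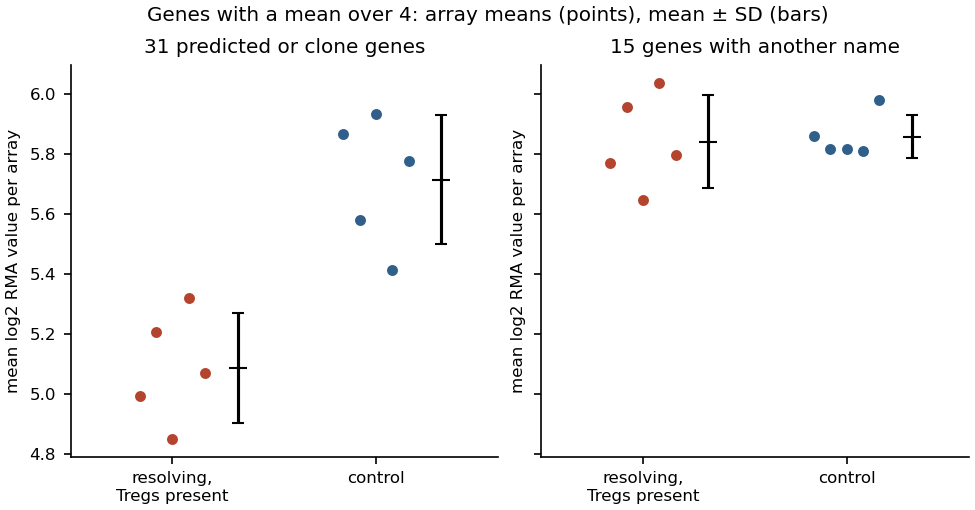
Mean log2 RMA value per array over the 31 expressed predicted or clone genes (left) and the 15 expressed genes with another name (right), with the mean ± SD of each group (n = 5 each). With Tregs present the array means on the left run from 4.85 to 5.32, all below the control arrays at 5.41 to 5.93, and on the right the groups overlap.

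The largest falls in this class were those of Gm10590, D130062J21Rik and Gm10914. Gm10590 stood at 4.91, 5.35, 5.03, 4.61 and 5.01 with Tregs present, against 6.77, 6.91, 6.69, 6.10 and 6.85 in control, which is 3.21-fold lower (limma adjusted p = 1.13e-06). D130062J21Rik stood at 3.46, 3.98, 3.18, 4.53 and 3.85 with Tregs present, against 5.83, 4.93, 5.75, 5.13 and 5.74 in control, which is 3.19-fold lower (limma adjusted p = 8.49e-05). Gm10914 stood at 4.03, 4.28, 4.18, 4.59 and 3.34 with Tregs present, against 5.73, 4.71, 5.91, 5.34 and 6.39 in control, which is 2.89-fold lower (limma adjusted p = 0.000532). None of these 3 overlapped between the groups, and for each of them control array 2 or 4 was the lowest control. Several probe-set numbers are listed for 5 of the 28 called genes and for 13 of the 173 tested, so their values can join near-identical copies. Gm10590, Gm5859 and 4930466F19Rik are among the 5. Gm5859, a transcribed pseudogene in RefSeq, fell by 1.27 and 4930466F19Rik by 1.02 on the log2 scale.

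C530030P08Rik, the clone with the highest level of all measured genes, stood at 8.56, 9.17, 8.49, 9.85 and 8.85 with Tregs present, against 9.72, 9.30, 9.64, 9.67 and 10.02 in control. The groups overlapped, since resolving array 4 lay above 4 of the 5 controls, and the fall of 0.69 on the log2 scale passed the test narrowly (limma adjusted p = 0.0344). Without resolving array 3 its adjusted p was 0.105 (limma). Gm19439 fell with little spread: it stood at 6.68, 6.98, 6.75, 6.75 and 6.53 with Tregs present, against 7.79, 7.64, 7.79, 7.45 and 7.72 in control (log2 change -0.94, limma adjusted p = 8.46e-05). Gm19816 fell by 1.198, Gm10099 by 1.07, E230008O15Rik by 0.98 and D130012P04Rik by 0.87 on the log2 scale. Of these 4, Gm19816 overlapped between the groups, because resolving array 4 (5.45) lay just above control array 4 (5.44).

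The remaining expressed falls overlapped between the groups. D5Ertd683e, an expressed DNA segment, and the clones Gm20064, 9930017N22Rik, Gm19551, Gm19537, Gm19578 and Gm20169 had log2 changes between -0.86 and -0.66. Near the floor, Gm20066 stood at 2.95, 3.09, 2.46, 3.39 and 2.86 with Tregs present, against 4.22, 4.18, 4.33, 4.01 and 4.88 in control. The Gm20066 groups did not overlap, and only its control values were above 4 (log2 change -1.37, limma adjusted p = 8.46e-05). Gm9948 averaged 2.36 ± 0.12 with Tregs present and 2.82 ± 0.25 in control (SD, n = 5 each), a fall of 0.46 on the log2 scale. The 1 clone-class gene with a rise above the floor was Gm20559, a long non-coding RNA in RefSeq. Its values were 6.90, 7.04, 6.71, 7.01 and 6.68 with Tregs present, against 6.12, 6.15, 5.73, 6.43 and 5.47 in control (1.85-fold higher, limma adjusted p = 0.00139).

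**Figure D4:**
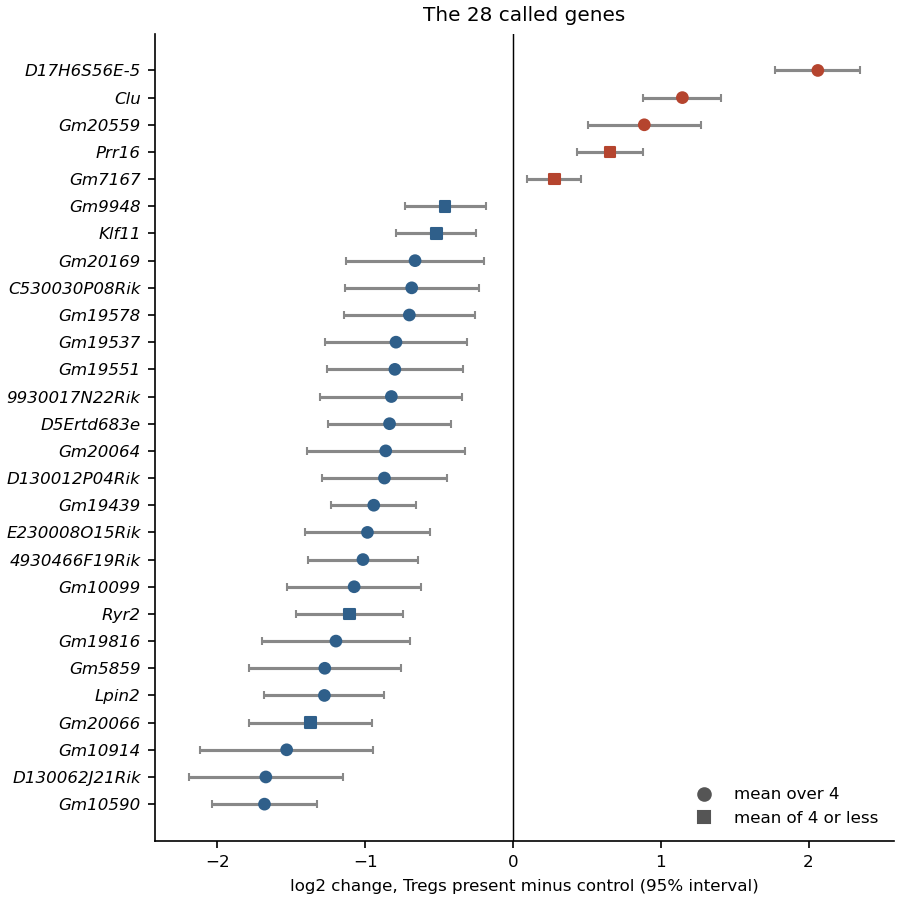
Log2 change (Tregs present minus control) with its 95% interval for the 28 called genes, circles for a mean over 4 and squares for a mean of 4 or less. The 5 rises run from 0.28 for Gm7167 to 2.06 for D17H6S56E-5, and the 23 falls from -0.46 for Gm9948 to -1.68 for Gm10590.

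For 11 of the 15 expressed genes with another name the test was not passed. Thoc7, a subunit of the THO complex that couples transcription to mRNA export, came closest: it stood at 6.42, 6.30, 6.49, 6.24 and 6.47 with Tregs present, against 5.87, 5.98, 6.00, 6.23 and 6.10 in control. It was the 1 uncalled gene whose groups did not overlap (log2 difference 0.35, interval 0.10 to 0.60, limma adjusted p = 0.0512). Thoc7 was called in 10 of 28 alternatives, quantile normalization and the ordinary linear model among them. Fnbp4, which binds formins, differed by -0.34 (interval -0.61 to -0.07, limma adjusted p = 0.0804). Pigl, a deacetylase of glycosylphosphatidylinositol anchor synthesis, differed by -0.38 and Mpp7, a scaffold of cell junctions, by -0.52, with intervals that excluded 0 and limma adjusted p-values of 0.115 each. The expressed sequence AA666905 differed by -0.46 (limma adjusted p = 0.118).

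Intervals of the other 6 genes included 0. Map3k14, the kinase of the non-canonical NF-kB pathway, stood at 4.04, 4.61, 3.71, 3.96 and 4.04 with Tregs present, against 4.002, 3.88, 3.88, 4.46 and 3.95 in control. Its difference of 0.04 had an interval of -0.37 to 0.45. Dleu2, a long non-coding RNA that hosts microRNAs, differed by -0.02 (interval -0.42 to 0.38). Pdzd2 differed by -0.09 (-0.49 to 0.30), Sh3bgrl2 by 0.14 (-0.09 to 0.38) and Dedd2, a death effector domain protein, by -0.18 (-0.62 to 0.26). Of the 31 expressed clone genes, 13 did not pass, and 11 of the 13 had a negative difference.

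The balance of falls and rises depended on how the arrays were scaled. Quantile normalization gives every array the same distribution of values over the measured rows. A fall shared by many of the brighter genes is therefore made smaller by the method itself. Whether scaling had a part in the falls was not tested. After quantile normalization of the measured rows 27 genes were called, of which 14 rose (51.9%, against 17.9% of the calls on the deposited values) and 13 fell. Among the 46 expressed genes 8 then rose and 10 fell, and their median change was -0.07. In the clone class 3 rose and 8 fell, and among the 15 other expressed genes 5 rose and 2 fell. All 5 rises on the deposited values kept their calls, and 12 of the 23 falls did, Lpin2 (-0.95), Gm10590 (-1.32), Gm19439 (-1.02) and Ryr2 (-0.84) among them. Among expressed genes with another name, 4 calls were gained after quantile normalization. Thoc7 (0.65, limma adjusted p = 0.00402), Sh3bgrl2 (0.61, limma adjusted p = 0.00738) and Dleu2 (0.54, limma adjusted p = 0.0388) were called higher, and Fnbp4 (-0.35, limma adjusted p = 0.0408) lower.

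**Figure D5:**
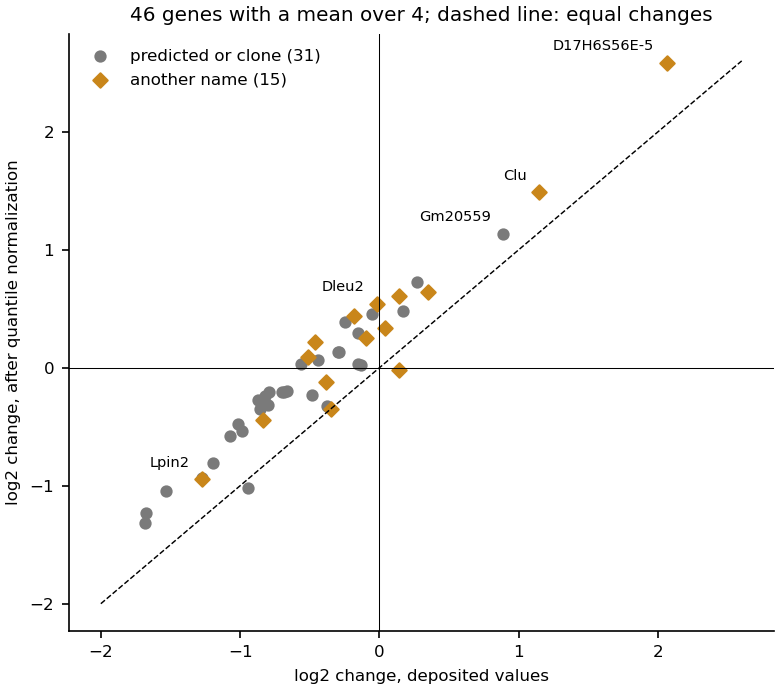
Log2 change (Tregs present minus control) of the 46 expressed genes after quantile normalization (vertical) against the deposited values (horizontal), 1 point per gene. Most points lie above the dashed line of equal changes, so most falls are smaller after quantile normalization, and D17H6S56E-5, Clu, Gm20559 and Lpin2 keep their side of 0.

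The clone genes also varied together within the groups. With group means removed, pairs of the 31 expressed clone genes had a median correlation of 0.35 over the 10 arrays, and 77.4% of 465 pairs were positive. The median was 0.10 over the 15 expressed genes with another name and 0.02 over the 127 near-floor genes. These are descriptions of pairs that share the same arrays. With Tregs present, arrays 1 and 3 had the narrowest interquartile ranges of the measured rows (0.875 and 0.791). They also had the lowest clone means (4.99 and 4.85). In control, arrays 2 and 4 were lowest in both (ranges 0.977 and 0.989, means 5.58 and 5.41). Whether this range had a part in the shared variation was not tested.

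Leaving out 1 array at a time changed the number of calls. It was 19 without Tregs-present array 1, which ended 9 of the 28 calls. It was 21 without Tregs-present array 3 or control array 3, each of which ended 7. It was 23 without control array 1, 24 without Tregs-present array 5 and 26 without control array 2, which ended 5, 4 and 3 calls. It was 31 without control array 4, the control array high in Lcp2, and 26 of the 28 genes kept their calls there. Control array 5 also left 31 calls, Tregs-present arrays 2 and 4 left 29 and 30, and leaving out an array of the Tregs-depleted group left 27 to 30. In all 15 such fits 19 of the 28 genes kept their calls, among them D17H6S56E-5, Clu, Gm20559, Prr16, Lpin2, Ryr2 and Klf11. The 9 that did not were 9930017N22Rik, Gm7167, Gm9948, Gm20169, C530030P08Rik, Gm19551, Gm20064, Gm19537 and Gm19578. Their highest adjusted p-values in these limma fits were between 0.0523 for Gm19551, without Tregs-present array 1, and 0.144 for Gm20169, without control array 3.

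Of 15 marker genes of leukocytes 4 were measured and 3 entered the test (Rcsd1 did not pass the filter on dim genes). None of the 3 was called by limma, against 16.2% of all tested genes. Of the 3, Nckap1l alone had an unadjusted p under 0.05 (difference 0.19, limma adjusted p = 0.115). Lcp2, a signalling adaptor of T cells and myeloid cells, stood at 2.85, 3.80, 3.58, 4.33 and 3.58 with Tregs present, against 3.60, 2.78, 3.41, 6.61 and 3.81 in control. Its difference was -0.41 (interval -1.92 to 1.09) and turned to 0.23 without control array 4. Nckap1l, Rcsd1 and Slamf6 were near the floor, at 2.03 to 2.66 with Tregs present and 1.99 to 2.67 in control. On the linear scale the 4 genes summed to 22.4 to 34.8 with Tregs present and 21.5 to 115 in control. Without Lcp2 the sums were 13.9 to 17.2 and 12.6 to 16.9. With Tregs depleted they were 21.6 to 149, and 14.8 to 15.6 without Lcp2, so Lcp2 was high there too. Those arrays enter the spread behind the Lcp2 interval. Ptprc, which defines leukocytes, is not analysed here, and neither are the listed markers of type I, club and ciliated, endothelial, mesenchymal, erythroid and regulatory T cells or the listed cell cycle genes. Ryr2 was the 1 measured member of 9 calcium handling genes, Klf11 of 9 Krüppel-like factors and Map3k14 of 8 NF-kB genes. Trim30a, an interferon-induced gene and 1 of 12 listed as such, stood at 2.41, 2.51, 2.48, 2.54 and 2.58 with Tregs present, against 3.87, 2.21, 2.34, 3.44 and 2.45 in control. Its control arrays 1 and 4 were high, and the difference of -0.36 did not pass the test (limma adjusted p = 0.618).

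The Tregs-depleted resolving arrays share the control arrays with this comparison, so their levels are given only side by side. D17H6S56E-5 averaged 7.60 ± 0.27 with Tregs present, 7.81 ± 0.14 with Tregs depleted and 5.54 ± 0.12 in control (SD, n = 5 each). Gm10590 averaged 4.98 ± 0.27 with Tregs present, 5.30 ± 0.13 with Tregs depleted and 6.67 ± 0.33 in control. Gm19439 averaged 6.74 ± 0.16 with Tregs present, 6.40 ± 0.25 with Tregs depleted and 7.68 ± 0.14 in control. C530030P08Rik averaged 8.98 ± 0.56 with Tregs present, 9.48 ± 0.29 with Tregs depleted and 9.67 ± 0.26 in control. The array means of the 31 expressed clone genes ran from 4.85 to 5.32 with Tregs present, from 5.08 to 5.52 with Tregs depleted and from 5.41 to 5.93 in control.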

How the data were processed

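RNA of 15 mouse AT2 samples (5 per group) was hybridised to Affymetrix Mouse Gene 2.1 ST arrays, 1 array per sample. The deposited values are log2 RMA expression values, made by the authors with RMA, Affymetrix Expression Console and Partek, per the submitters' processing notes, which give no versions. The genome build is not given in the sources used here. In the deposited workbook, the rows after the leading 1.03% are straight lines by row number, reach 41.8, and were not used. The deposited value table held the same numbers to within 5e-09. For each symbol the row with the highest mean was kept. Genes above the array median in at least 5 of the 15 arrays were tested (173 of 323).

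Contrasts were fitted to all 15 arrays with limma 3.58.1 in R 4.3.3 (lmFit, eBayes with trend, 1 mean per group), with Benjamini-Hochberg adjustment over the 173 genes and a threshold of 0.05. Without adjustment, 53 genes were under 0.05. The fit was run on simulated data in which genes varied independently and changed only upward. In the measured data the expressed clone genes varied together and most called genes fell. The simulated error rate therefore does not carry over to these data. The number of arrays limits the precision. Named genes were those called, the expressed genes with a name other than a predicted gene or clone, the measured members of 15 gene lists, Lcp2, Trim30a, Map3k14 and the 3 genes either side of the mean of 4. Members, lists and rule were chosen with earlier results of these data known. Of the 323 symbols 108 matched RefSeq, 60 of them protein coding. Replicate numbers were not used to pair the arrays. Residual correlations of the 5 same-numbered pairs of Tregs-present and control arrays were -0.25 to 0.04 (median -0.23). The median for other pairs was 0.05. So few pairs cannot show whether the numbers carry a shared day or batch. Alternatives covered the filter, normalization, model, expression threshold and arrays left out.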

Additional observations from a re-analysis of the deposited data

Results flagged for a closer look

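Among 104 sets of 5 arrays (each named gene or array summary in a group), 5 held 1 value far from the other 4, and chance flags about 1 in 20 such sets, or 5.2. In 4 of the 5, that value was control array 4. Lcp2 stood at 6.61 there, against 2.78 to 3.81 in the other controls. Map3k14 stood at 4.46 there, against 3.88 to 4.002. Gm5859 was low in that array, at 5.66 against 6.41 to 6.69, and so was Gm10590, at 6.10 against 6.69 to 6.91. With Tregs present, Gm20064 stood at 4.43 in array 4, against 3.58 to 3.83 in the other 4.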

How the results depend on the processing

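Leaving out 1 array at a time left 19 to 31 calls, 15 to 24 among expressed and 4 to 9 among near-floor genes. Of the 28 calls, 15 were kept in all 27 alternatives that tested the full gene set. Among these alternatives, the deposited value table and the use of every measured row repeated the main fit and add no check. A replicate block, although it is not known whether the numbers pair the arrays, left 25 calls, all among the 28. Array quality weights gave 11 near-floor calls. A change of at least 2-fold left 12 calls, 10 expressed and 2 near the floor. With a mean above 3 as expressed, 3 calls lay near the floor. Above 5 the split was 12 and 16, and above 6 it was 6 and 22. Quantile normalization turned the sign of Edv (-0.0175), Pdzd2 (0.25), Mpp7 (0.0926), Dedd2 (0.44), Dleu2 (0.54), AA666905 (0.21), Gm19409 (0.29) and Zscan30 (0.28), and the cause was not tested. Leaving out 1 array turned signs within ranges of -0.11 to 0.0849 for Dleu2, -0.10 to 0.14 for Map3k14, -0.000642 to 0.22 for Edv, -0.73 to 0.23 for Lcp2 and -0.19 to 0.0477 for Pdzd2. Further alternatives were chosen after seeing the data. Centring arrays on the mean of the 46 expressed genes gives both groups the same mean over these genes by construction. It shifts the change of every gene by the same amount. The median change of all genes was then 0.36, against -0.07 on the deposited values. This centring gave 90 calls (77 up), 71 of them near the floor, and among expressed genes 8 up and 11 down. The move of the near-floor genes and the turned signs that follow come from that common shift. Signs then turned for Pdzd2 (0.33), Dedd2 (0.24), Lcp2 (0.0149), Trim30a (0.0693), Pigl (0.0435), Fnbp4 (0.0829), Dleu2 (0.41), Gm19409 (0.35) and Zscan30 (0.31). Without control array 4 and Tregs-depleted array 5 there were 33 calls, and Lcp2 (0.23) and Dleu2 (0.0332) turned.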
